A study of Mus musculus with 6 samples.

Results

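The genes described are 9 receptors and receptor partners through which the liver reads drugs, pollutants, steroids and thyroid hormone: Nr1i2, Nr1i3, Ahr, Arnt, Rxra, Rxrb, Thrb, Nr3c1 and Esr1. They were taken from the table by gene name, the list of names having been drawn up with earlier results of these data known, and each had 1 row among the 55222 rows of the deposited table. All 9 passed the filter on low values, a mean of at least 1 FPKM (a read count scaled by transcript length and library size) in at least 1 group. Liver RNA was sequenced from C57BL/6 mice in 6 libraries, 2 for each of 3 groups. Normal livers had neither agent. AAV-Ctrl livers came from mice treated with carbon tetrachloride (CCl4) plus an adeno-associated virus that served as control. AAV-shPhpt1 livers had CCl4 plus a virus whose hairpin RNA targets Phpt1. CCl4 is a solvent that cytochrome P450 enzymes turn into a radical that injures hepatocytes. It was given in olive oil into the peritoneum at 12.5 ml/kg, 2 times per week. The virus was injected into a vein after 1 week of CCl4, in groups of 5 mice, with tissue collected 48 h after the final dose. Whether normal mice received olive oil, the sex and age of the mice, the promoter of the hairpin, and whether a library holds 1 liver or a pool are not given. CCl4 and virus were absent together from the normal group, so their effects cannot be told apart.

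Most of these proteins are transcription factors that wait for a small molecule. PXR (gene Nr1i2) and CAR (Nr1i3) sense drugs, bile acids and steroids and switch on cytochromes P450, conjugating enzymes and transporters. They act as heterodimers with a retinoid X receptor, of which Rxra and Rxrb encode a pair of forms, and the thyroid hormone receptor beta encoded by Thrb shares that partner. AHR (Ahr), the receptor for dioxins and other flat aromatic compounds, pairs with ARNT (Arnt) and induces Cyp1a genes. The glucocorticoid receptor (Nr3c1) and oestrogen receptor alpha (Esr1) are held by heat shock protein chaperones until a steroid binds, and the glucocorticoid receptor drives genes of gluconeogenesis during fasting and stress.

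The libraries held between 21488841 and 24188029 reads, recovered from the FPKM values and transcript lengths. Phpt1, the gene targeted by the hairpin, had 1 to 5 reads per library (0.0521 to 0.259 FPKM), too few to show a knockdown. Hepatocyte markers, 8 of which were in the table, summed to between 85565 and 146559 FPKM in every library, and no gene of any marker list was at 0 in all libraries. In AAV-Ctrl against normal, the adjusted p of limma was under 0.05 (a call) for 20.5% of the 13517 genes tested, with 18.2% higher and 2.28% lower. The share was 0% in AAV-shPhpt1 against AAV-Ctrl, where the unadjusted p was under 0.05 for 8.48% (1146 genes), and 4.34% in AAV-shPhpt1 against normal. These shares rest on pairs of libraries: AAV-Ctrl against normal gave 6 to 18 calls in place of 2772 when 1 library of either group was left out. AAV-shPhpt1 against AAV-Ctrl gave 377 calls without AAV-shPhpt1 replicate 1 and 5 without replicate 2, and AAV-shPhpt1 against normal gave 75 and 2289 in place of 586. The labels do not say that replicates are separate animals, so p-values measure the spread between these samples, which may be technical.

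Rxra had by far the highest FPKM of the 9 genes. It was at 216 ± 34.2 FPKM in normal, 154 ± 11.9 in AAV-Ctrl and 139.8 ± 38.6 in AAV-shPhpt1 livers (SD, n = 2 each). FPKM here divides by the mean length over the annotated transcripts of a gene. The order of the genes therefore also depends on which transcripts are annotated, and that dependence was not tested. Nr3c1 came second in every group, at 31.4 ± 2.01, 34.6 ± 0.899 and 35.0 ± 0.418 FPKM. In both CCl4 groups its libraries stood apart from those of the next gene, Rxrb, whereas in normal livers they overlapped with those of Nr1i2. Esr1 was last in normal livers (6.54 ± 1.15 FPKM), overlapping with Nr1i3, and Nr1i3 was last in AAV-Ctrl (7.24 ± 3.99) and AAV-shPhpt1 livers (4.97 ± 0.0853), apart from Esr1 in both. Between these ends, in normal livers, Nr1i2, Rxrb, Arnt and Thrb followed each other from 29.6 down to 19.8 FPKM with each neighbour overlapping the next, and Ahr (12.0) stood apart from Thrb and overlapped with Nr1i3. In AAV-Ctrl livers the order of the middle genes was Rxrb, Ahr, Arnt and Thrb, from 27.0 to 21.7 FPKM with overlaps, and then Nr1i2 at 17.3, apart from its neighbours on either side. In AAV-shPhpt1 livers it was Rxrb, Nr1i2 and Arnt, then Thrb at 19.0 apart from Arnt, with Ahr overlapping Thrb and Esr1 overlapping Ahr. The fewest reads behind any value were the 190 of Nr1i3 in AAV-Ctrl replicate 2, and the most were the 11503 of Rxra in normal replicate 1.

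**Figure D1:**
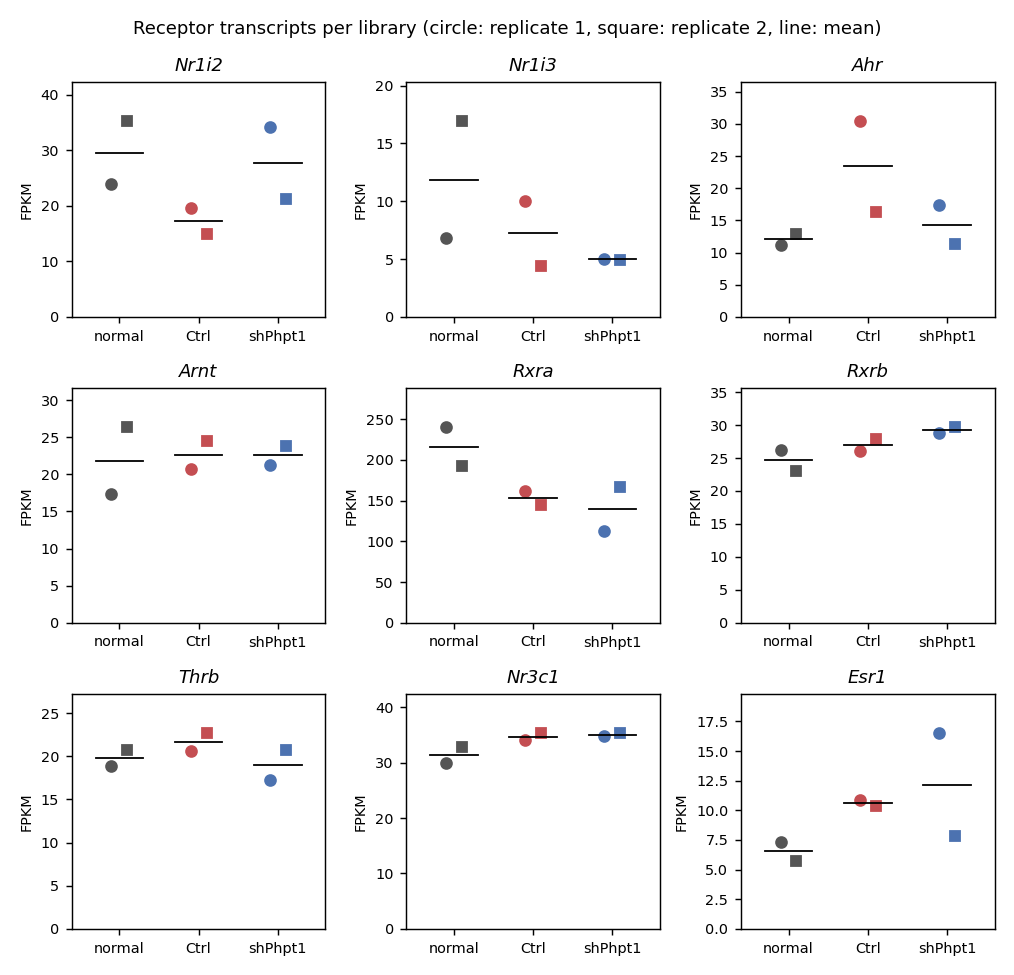
FPKM of the 9 genes in each library, 1 panel per gene, with circles for replicate 1, squares for replicate 2 and a line for the mean of each group of 2; each vertical axis starts at 0. Rxra ran from 113 to 240.4 FPKM, and the libraries of Nr3c1 stayed between 30.0 and 35.3.

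In GENCODE M21 (GRCm38), Nr1i2 spans chr16:38248323-38294824 and Ahr chr12:35497974-35535038 on the minus strand. On the plus strand, Nr1i3 spans chr1:171213970-171220701, Arnt chr3:95434388-95497240, Rxra chr2:27676440-27762957, Rxrb chr17:34031812-34038399, Thrb chr14:17660261-18038090 and Esr1 chr10:4611593-5005614. Promoter windows of the 250 bases before an annotated start were read from RefSeq (GRCm38.p6). The 11 member windows used here belong to 7 of the 9 genes, with none for Ahr or Nr3c1. Shown here are the windows of the xenobiotic pair and an internal window of Rxra, with that of Cyp1a1, the AHR target described further on. All are outside annotated exons of GENCODE M21. Nr1i2 lies on the minus strand with its window at chr16:38294825-38295074, and Nr1i3 on the plus strand at chr1:171213720-171213969. The Rxra window, chr2:27709042-27709291 on the plus strand, belongs to an internal start and is in an intron of the longer gene, and the Cyp1a1 window is chr9:57697363-57697612 on the plus strand, also within the bounds of its gene. Capitals mark the motifs searched on both strands: GCGTG (or CACGC), the core bound by AHR with ARNT, CACGTG, an E-box, AGGTCA (or TGACCT), the hexamer of receptors that pair with RXR, and AGAACA (or TGTTCT), part of the glucocorticoid response element. None of the 4 motifs overlapped another in these windows.
Nr1i2: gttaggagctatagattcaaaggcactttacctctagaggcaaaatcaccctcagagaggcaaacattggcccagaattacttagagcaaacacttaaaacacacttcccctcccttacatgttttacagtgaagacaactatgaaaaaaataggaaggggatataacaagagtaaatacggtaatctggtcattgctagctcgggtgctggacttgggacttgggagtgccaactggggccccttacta
Nr1i3: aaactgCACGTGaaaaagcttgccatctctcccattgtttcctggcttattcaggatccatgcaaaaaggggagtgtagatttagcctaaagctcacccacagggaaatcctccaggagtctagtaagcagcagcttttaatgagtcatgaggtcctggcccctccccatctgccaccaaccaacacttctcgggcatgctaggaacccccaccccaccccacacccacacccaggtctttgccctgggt
Rxra: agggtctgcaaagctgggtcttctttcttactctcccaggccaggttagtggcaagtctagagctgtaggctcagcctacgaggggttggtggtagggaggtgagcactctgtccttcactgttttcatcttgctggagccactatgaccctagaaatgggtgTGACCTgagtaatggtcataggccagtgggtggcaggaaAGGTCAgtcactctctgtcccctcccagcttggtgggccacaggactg
Cyp1a1: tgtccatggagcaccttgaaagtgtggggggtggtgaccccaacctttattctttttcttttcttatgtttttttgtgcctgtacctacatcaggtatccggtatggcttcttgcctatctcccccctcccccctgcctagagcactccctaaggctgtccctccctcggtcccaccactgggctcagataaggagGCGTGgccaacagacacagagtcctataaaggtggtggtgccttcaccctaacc
The other Rxra window, nearer the start of the gene at chr2:27676951-27677200, held none of the 4 motifs. The internal Rxra window held TGACCT at 87 and AGGTCA at 48 bases before the start, Nr1i3 held CACGTG at 244 bases, Cyp1a1 held GCGTG at 54 bases, and that of Nr1i2 held none of the 4. Over the 11 member windows, 4 held GCGTG or CACGC, 2 held CACGTG, 2 held AGGTCA or TGACCT and 1 held AGAACA or TGTTCT. Among all 32851 windows of the same length the shares were 28.2%, 6.0%, 14.0% and 16.1%. These are matches of letters only.

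Among the xenobiotic sensors, Nr1i2 had the lower values in AAV-Ctrl livers and Ahr the higher ones, and neither passed the test. Nr1i2 was at 23.9 and 35.3 FPKM in normal, 19.5 and 15.0 with AAV-Ctrl, and 34.3 and 21.3 with AAV-shPhpt1. Both AAV-Ctrl libraries were below all 4 others, and the AAV-shPhpt1 libraries overlapped with the normal ones. AAV-Ctrl was 1.72-fold below normal, a log2 difference of -0.73 ± 0.29 (SE; 95% interval -1.43 to -0.03), with an unadjusted p of 0.0435 and an adjusted p of 0.11. AAV-shPhpt1 was 1.61-fold above AAV-Ctrl (log2 difference 0.63, interval -0.07 to 1.33, adjusted p 0.623) and -0.10 from normal (interval -0.80 to 0.60, adjusted p 0.821). With libraries centred on their median gene, the first of these differences was -1.18 and passed, with an adjusted p of 0.042, and without normal replicate 2 it was -0.46 (adjusted p 0.366).

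Nr1i3, which encodes CAR, was at 6.81 and 16.9 FPKM in normal, 10.1 and 4.43 with AAV-Ctrl, and 5.03 and 4.91 with AAV-shPhpt1. The normal and AAV-Ctrl libraries overlapped and each pair was wide, while the AAV-shPhpt1 libraries were close to each other and below both normal ones. The log2 difference was -0.61 in AAV-Ctrl against normal (interval -1.76 to 0.54, adjusted p 0.355) and -0.99 in AAV-shPhpt1 against normal (interval -2.13 to 0.16, adjusted p 0.201). AAV-shPhpt1 against AAV-Ctrl gave -0.38 (interval -1.52 to 0.77, adjusted p 0.902). These intervals are the widest among the 9 genes. Leaving out 1 library moved the first difference between -1.21 (without normal replicate 1) and -0.01 (without normal replicate 2), and the difference of AAV-shPhpt1 from normal between -1.59 and -0.39 for the same libraries. Nr1i3 had the largest overlap with another gene among the 9. Of its 4414 exonic bases, 3304 (74.9%) lie in exons of Tomm40l on the opposite strand, as do 806 (75.0%) of its 1074 coding bases. The labels do not say whether reads were counted by strand, so reads of Nr1i3 and of Tomm40l, a mitochondrial outer membrane protein gene, may be exchanged. Tomm40l was at 3.05 and 5.15 FPKM in normal, 4.03 and 4.30 with AAV-Ctrl, and 3.17 and 4.89 with AAV-shPhpt1, with all groups overlapping.

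Ahr was at 11.1 and 13.0 FPKM in normal, 30.5 and 16.3 with AAV-Ctrl, and 17.3 and 11.4 with AAV-shPhpt1. Both AAV-Ctrl libraries were above the normal ones, replicate 1 by far the more, and the AAV-shPhpt1 libraries overlapped with both other groups. AAV-Ctrl was 1.94-fold above normal (log2 difference 0.84, SE 0.32, interval 0.06 to 1.63), with an unadjusted p of 0.0391 and an adjusted p of 0.103. This difference was 0.39 with median centring (adjusted p 0.442), 0.48 with quantile normalization (0.381), 0.42 without AAV-Ctrl replicate 1 (0.362) and 1.27 without AAV-Ctrl replicate 2 (0.173). AAV-shPhpt1 against AAV-Ctrl gave -0.63 (interval -1.42 to 0.15, adjusted p 0.664), and AAV-shPhpt1 against normal gave 0.21 (interval -0.58 to 1.00, adjusted p 0.658), a sign that turned to -0.14 with median centring. A stretch of 127 exonic bases of Ahr (2.1%) is shared with Gm48236 on the opposite strand. Its partner Arnt was at 17.3 and 26.4 FPKM in normal, 20.7 and 24.5 with AAV-Ctrl, and 21.3 and 23.9 with AAV-shPhpt1, and both CCl4 pairs lay within the range of the normal pair. Its log2 difference from normal was 0.07 in AAV-Ctrl (interval -0.46 to 0.60, adjusted p 0.829) and 0.07 in AAV-shPhpt1 (-0.46 to 0.60, adjusted p 0.831), and both turned with median centring, to -0.38 and -0.28. Between the CCl4 groups it was 0.00 (-0.53 to 0.53, adjusted p 1).

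Rxra encodes a retinoid X receptor, which can pair with PXR, CAR and TR beta. It was lower in both CCl4 groups without passing the test, and Rxrb was not. Rxra was at 240.4 and 192 FPKM in normal, 162 and 145 with AAV-Ctrl, and 113 and 167 with AAV-shPhpt1. All 4 CCl4 libraries were below both normal ones, and those of the CCl4 groups overlapped. AAV-Ctrl was 1.41-fold below normal (log2 difference -0.48, SE 0.22, interval -1.02 to 0.06, adjusted p 0.151) and AAV-shPhpt1 was 1.55-fold below (log2 difference -0.64, interval -1.18 to -0.11, unadjusted p 0.0262, adjusted p 0.118). The latter was -0.93 with an adjusted p of 0.0423 without AAV-shPhpt1 replicate 2, and -0.36 with an adjusted p of 0.343 without replicate 1. With median centring the first was -0.94 (adjusted p 0.0829), and without normal replicate 1 it was -0.32 (adjusted p 0.465). AAV-shPhpt1 against AAV-Ctrl gave -0.16 (interval -0.70 to 0.38, adjusted p 0.911).

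Rxrb was at 26.2 and 23.1 FPKM in normal, 26.0 and 28.0 with AAV-Ctrl, and 28.8 and 29.7 with AAV-shPhpt1. The AAV-shPhpt1 libraries were above all others, and those of normal and AAV-Ctrl overlapped. The log2 differences were small and had narrow intervals: 0.13 in AAV-Ctrl against normal (interval -0.19 to 0.45, adjusted p 0.486), 0.11 in AAV-shPhpt1 against AAV-Ctrl (-0.21 to 0.43, adjusted p 0.891) and 0.24 in AAV-shPhpt1 against normal (-0.08 to 0.56, adjusted p 0.247). With median centring the differences from normal turned to -0.32 and -0.11.

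Of the hormone receptors, Thrb and Nr3c1 had small differences with narrow intervals, and Esr1 was higher in both CCl4 groups without passing the test. Thrb was at 18.9 and 20.7 FPKM in normal, 20.7 and 22.7 with AAV-Ctrl, and 17.3 and 20.7 with AAV-shPhpt1, with all groups overlapping. Its log2 differences were 0.12 (interval -0.24 to 0.49, adjusted p 0.55) for AAV-Ctrl against normal, -0.19 (-0.55 to 0.18, adjusted p 0.813) for AAV-shPhpt1 against AAV-Ctrl and -0.06 (-0.43 to 0.30, adjusted p 0.789) for AAV-shPhpt1 against normal. Nr3c1 had the smallest range of the 9, 0.23 on the log2 scale over the 6 libraries. It was at 30.0 and 32.8 FPKM in normal, 34.0 and 35.3 with AAV-Ctrl, and 34.7 and 35.3 with AAV-shPhpt1. Both normal libraries were below the 4 CCl4 libraries by a small margin, which was 0.14 (interval -0.16 to 0.44, adjusted p 0.412) and 0.16 (-0.14 to 0.45, adjusted p 0.387) against normal and 0.02 (-0.28 to 0.31, adjusted p 0.991) between the CCl4 groups. Median centring turned the differences of AAV-Ctrl from normal to -0.33 for Thrb and -0.31 for Nr3c1.

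Esr1 was at 7.35 and 5.73 FPKM in normal, 10.8 and 10.4 with AAV-Ctrl, and 16.5 and 7.79 with AAV-shPhpt1. All 4 CCl4 libraries were above both normal ones, and the AAV-shPhpt1 pair enclosed the AAV-Ctrl pair. AAV-Ctrl was 1.62-fold above normal (log2 difference 0.63, SE 0.33, interval -0.17 to 1.43, adjusted p 0.193) and AAV-shPhpt1 was 1.86-fold above (0.73, interval -0.07 to 1.52, adjusted p 0.184). When only normal and AAV-Ctrl entered the fit, the first had an adjusted p of 0.0488, and without AAV-shPhpt1 replicate 2 the latter was 1.22 with an adjusted p of 0.0291. Other settings moved the values down: AAV-Ctrl against normal was 0.18 with median centring (adjusted p 0.718) and 0.18 with quantile normalization (0.727), and AAV-shPhpt1 against normal was 0.38 with median centring (0.504), 0.40 with quantile normalization (0.489) and 0.23 without AAV-shPhpt1 replicate 1 (0.551). AAV-shPhpt1 against AAV-Ctrl gave 0.10 (interval -0.70 to 0.89, adjusted p 0.974).

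AAV-Ctrl against normal asks what CCl4 with the control virus did. Of the 9 genes 0 passed the test, against 20.5% of all genes tested (18.2% higher, 2.28% lower), and 2 had an unadjusted p under 0.05, Ahr (higher) and Nr1i2 (lower), against 41.5%. The groups did not overlap for 3 higher genes, Ahr, Nr3c1 and Esr1, where 60% of all genes did so, and for 2 lower genes, Nr1i2 and Rxra, where 12.5% did, or 72.5% in either direction. The median difference of the 9 was 0.12 on the log2 scale, beside 0.35 over all genes tested, and 7 of the 9 lay below that value. AAV-shPhpt1 against AAV-Ctrl asks what the hairpin did under CCl4: 0 of 9 passed, as did 0% of all genes, and 0 had an unadjusted p under 0.05, against 8.48%. Nr1i2 and Rxrb were higher without overlap, where 11.8% of genes were, and 0 of the 9 were lower without overlap, where 26.2% were, or 38% in either direction. The median was 0.00 beside -0.07 over all genes. In AAV-shPhpt1 against normal, 0 of 9 passed against 4.34% (3.26% higher, 1.07% lower), and Rxra was the 1 gene with an unadjusted p under 0.05, against 31.7%. Rxrb, Nr3c1 and Esr1 were higher without overlap (52.2% of genes) and Nr1i3 and Rxra lower (12.5% of genes), or 64.6% in either direction, with a median of 0.07 beside 0.30. These comparisons share libraries in pairs (AAV-Ctrl, AAV-shPhpt1 or normal), so they are not independent of each other. The interval of a member ran from 0.30 (Nr3c1) to 1.15 (Nr1i3) to either side of its log2 difference.

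**Figure D2:**
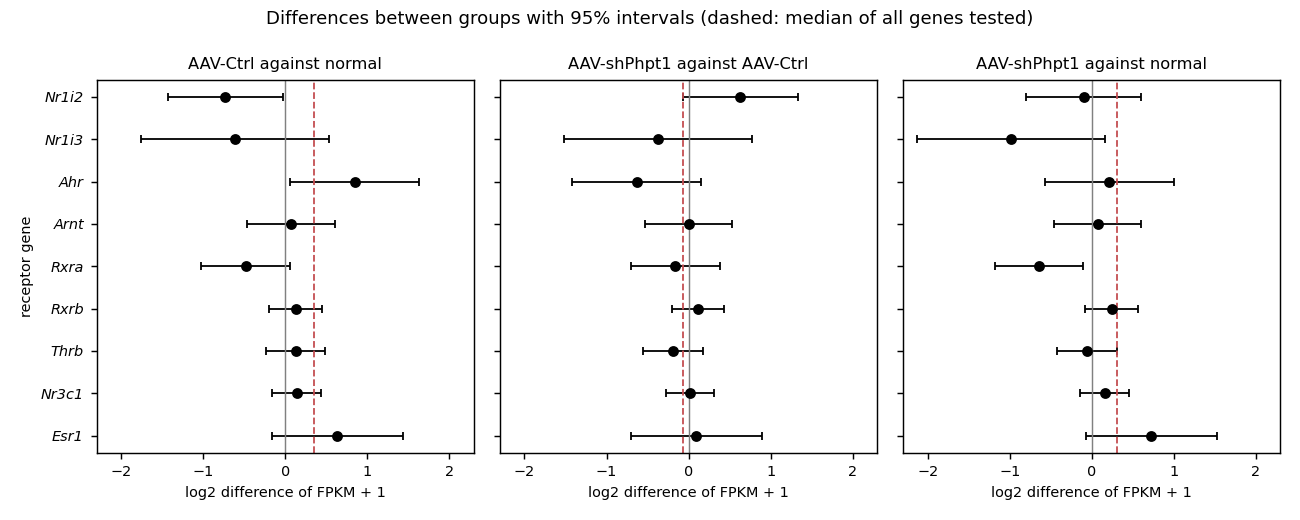
Log2 difference of FPKM + 1 for each of the 9 genes in the 3 comparisons, with points for the estimate, bars for the 95% interval and a dashed line for the median of all genes tested. In AAV-Ctrl against normal the estimates ran from -0.73 for Nr1i2 to 0.84 for Ahr, and with median centring those of Arnt, Rxrb, Thrb and Nr3c1 changed sign.

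Markers of several liver cell types differed between these groups. In bulk RNA, fewer cells of a type and less RNA per cell cannot be told apart. The counts of markers are for AAV-Ctrl against normal, where 18.2% of all genes tested rose and 2.28% fell. Of the pericentral hepatocyte markers, 4 of the 5 tested fell in AAV-Ctrl against normal, and the 6 in the table summed to between 7626 and 7977 FPKM in normal, 479.9 and 1211 with AAV-Ctrl, and 392 and 484 with AAV-shPhpt1. Macrophage markers rose in 5 of 7 cases and summed to 81.3 to 95.7, 621 to 754, and 113 to 424 FPKM in the same order. For stellate cells and myofibroblasts 7 of 8 markers rose (24.5 to 29.0, 308 to 362, and 54.3 to 164 FPKM), with the lower AAV-shPhpt1 value of both lists in replicate 2. Sinusoidal endothelial markers rose in 3 of 6 cases (15.9 to 39.5, 74.9 to 79.0, and 24.7 to 58.5) and cholangiocyte markers in 2 of 4 tested (20.1 to 25.2, 58.6 to 120.1, and 75.9 to 93.1). Lymphocyte markers passed in 0 of 6 (4.86 to 5.05, 8.38 to 11.0, and 5.83 to 21.9), periportal markers fell in 1 of 6 (6343 to 6505, 3438 to 5133, and 4241 to 6068), and hepatocyte markers rose in 2 of 8 (91099 to 95749, 85565 to 88248, and 103061 to 146559). The part of these shifts in the values of the 9 genes was not tested.

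The targets of PXR and CAR moved in both directions in AAV-Ctrl against normal, with 3 of 19 tested rising and 3 falling, where 18.2% of all genes rose and 2.28% fell. Those shares are also the background, in AAV-Ctrl against normal, of the lists that follow. Whether a listed gene changed through the receptor it is listed under was not tested. The median of the PXR and CAR list was -0.37 beside 0.35 over all genes. Cyp2b10, the cytochrome P450 used as the readout of CAR, was at 0.560 and 0.0888 FPKM in normal, 3.87 and 5.03 with AAV-Ctrl, and 8.31 and 2.46 with AAV-shPhpt1. All 4 CCl4 libraries were above the normal ones, which held 17 and 3 reads. The mean of Cyp2b10 reached the filter of 1 FPKM in the CCl4 groups only. It rose 13.7-fold (log2 difference 2.06, SE 0.48, adjusted p 0.0352), a call that ended with median centring (log2 difference 1.60, adjusted p 0.0677), quantile normalization (1.53, adjusted p 0.0759) and limma-voom on reads (4.23, adjusted p 0.0549). Gstm3, a glutathione transferase, rose 24.6-fold from 30.7 and 44.6 to 1145 and 709.9 FPKM (adjusted p 0.0208, and 0.0694 without the filter). Cyp2c37, another cytochrome P450, fell 44.8-fold from 108 and 102 to 4.29 and 0.410 FPKM (adjusted p 0.0112), and it fell 10.8-fold in AAV-shPhpt1 (9.99 and 9.52 FPKM, adjusted p 0.039). Ugt1a1, which conjugates bilirubin, fell 2.29-fold, from 21.2 and 24.2 to 12.2 and 7.68 FPKM (adjusted p 0.026, and 0.0726 without the filter). Cyp3a11, the classical target of PXR, did not pass: it was at 1403 and 886 FPKM in normal, 784 and 719 with AAV-Ctrl, and 2262 and 861 with AAV-shPhpt1, with the last pair wide. These enzymes belong to families of close copies, and Ugt1a1 shares exons with its neighbours, so reads may be split among them.

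Of the AHR targets 5 were tested, and 2 rose in AAV-Ctrl against normal, with a list median of 0.64. Cyp1a1, the gene AHR induces most, was at 0.280 and 0.629 FPKM in normal, 1.99 and 1.94 with AAV-Ctrl, and 0.956 and 0.700 with AAV-shPhpt1. The AAV-Ctrl pair was above all others and the AAV-shPhpt1 pair lay between. The normal libraries held 16 and 40 reads of Cyp1a1. Only in AAV-Ctrl, where it was high, did its mean reach 1 FPKM and so pass the filter. The count of 2 rises therefore depends in part on that filter. The rise of Cyp1a1, 4.32-fold (log2 difference 1.04, SE 0.25, adjusted p 0.0384), was not called without the filter (adjusted p 0.0889). It was also not called with median centring (0.59, adjusted p 0.131) or quantile normalization (0.51, adjusted p 0.175). Nqo1, a quinone reductase that also responds to oxidative stress through NRF2, rose 6.71-fold, from 2.88 and 1.40 to 14.8 and 13.8 FPKM (adjusted p 0.0201). Cyp1a2 behaved otherwise: it was at 731 and 882 FPKM in normal, 945 and 747 with AAV-Ctrl, and 291 and 289.9 with AAV-shPhpt1. The first 2 groups overlapped and the AAV-shPhpt1 pair was below both. It fell 2.78-fold in AAV-shPhpt1 against normal (log2 difference -1.47, SE 0.18, adjusted p 0.024), and its difference from AAV-Ctrl, -1.53, did not pass (adjusted p 0.434).

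**Figure D3:**
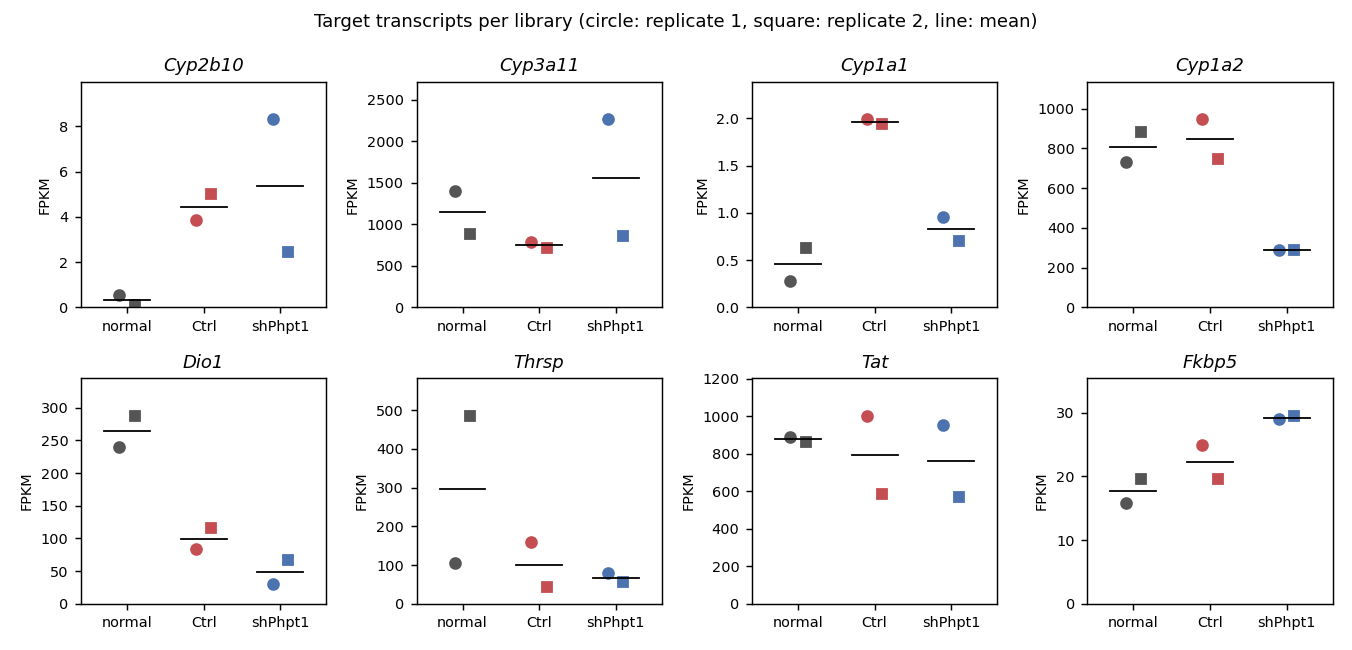
FPKM of 8 receptor targets in each library, with circles for replicate 1, squares for replicate 2 and a line for the mean of each group of 2; each vertical axis starts at 0. Dio1 ran from 240.0 and 287 FPKM in normal livers to 30.5 and 66.4 in AAV-shPhpt1 livers, and the Tat libraries overlapped between all groups.

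Thyroid hormone targets fell in 2 of the 10 tested in AAV-Ctrl against normal and rose in 0, with a list median of 0.02. Dio1, the deiodinase that makes the active hormone in liver, was at 240.0 and 287 FPKM in normal, 83.6 and 116 with AAV-Ctrl, and 30.5 and 66.4 with AAV-shPhpt1, 3 pairs without overlap. It fell 2.65-fold in AAV-Ctrl (log2 difference -1.41, SE 0.36, adjusted p 0.044), not called with quantile normalization (log2 difference -1.43, adjusted p 0.0694), and 5.44-fold in AAV-shPhpt1 against normal (adjusted p 0.0305), not called with only the 2 groups compared (adjusted p 0.0589). Cpt1a, which carries fatty acids into mitochondria, fell 1.79-fold in AAV-Ctrl, from 81.5 and 86.4 to 52.2 and 41.7 FPKM (adjusted p 0.0261, and 0.0694 without the filter). Thrsp, a lipogenic target, did not pass: 106 and 485 FPKM in normal, 159.7 and 42.4 with AAV-Ctrl, and 79.0 and 55.7 with AAV-shPhpt1, with normal replicate 2 far above the other 5 libraries.

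Glucocorticoid targets rose in 3 and fell in 2 of 14 tested in AAV-Ctrl against normal, with a list median of 0.08. In AAV-shPhpt1 against normal 2 rose and 2 fell, where 3.26% of all genes rose and 1.07% fell. The list median there was 0.11 beside 0.30 over all genes. Mt1, a metallothionein, rose 18.4-fold in AAV-Ctrl, from 5.17 and 4.15 to 59.6 and 112 FPKM (adjusted p 0.00686), and 21.7-fold in AAV-shPhpt1 (84.8 and 117 FPKM, adjusted p 0.00783). Pck1, the rate-setting enzyme of gluconeogenesis and also on the periportal list, fell 4.43-fold in AAV-Ctrl, from 1597 and 1715 to 379 and 368 FPKM (adjusted p 0.00697), and 2.85-fold in AAV-shPhpt1 (adjusted p 0.0207). Pdk4, a kinase that spares glucose, rose 9.70-fold in AAV-Ctrl, from 0.906 and 0.954 to 12.9 and 5.10 FPKM, a call lost with quantile normalization (adjusted p 0.0644). The mean of Pdk4 reached the filter of 1 FPKM in the CCl4 groups only. Angptl4, an inhibitor of lipoprotein lipase, fell 2.27-fold in AAV-Ctrl and 3.47-fold in AAV-shPhpt1, and the latter was not called with limma-voom (adjusted p 0.051). Sgk1, a kinase induced by steroids, rose in AAV-Ctrl, from 3.95 and 6.00 to 31.3 and 22.4 FPKM (log2 difference 2.22, adjusted p 0.024). It also rose 6.87-fold in AAV-shPhpt1, not called with quantile normalization (adjusted p 0.0598). The textbook targets Tat (892 and 865, 1002 and 586, 953 and 571 FPKM) and Fkbp5 (15.8 and 19.5, 25.0 and 19.6, 29.0 and 29.5 FPKM) did not pass. The Tat groups overlapped, and the Fkbp5 libraries of AAV-shPhpt1 were above all others. Of the oestrogen targets 3 were tested, with a median of -0.49 in AAV-Ctrl, and Igfbp4, a binding protein for insulin-like growth factors, fell 1.91-fold in AAV-Ctrl (1454 and 1530 to 837 and 722 FPKM, adjusted p 0.0253) and 1.94-fold in AAV-shPhpt1, the latter not called with median centring (adjusted p 0.0516).

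Calls among the genes around the receptors stand beside the 18.2% of all genes that rose and the 2.28% that fell in AAV-Ctrl against normal. The list medians there were 0.31 for chaperones and 0.35 for coactivators and corepressors. They were 0.16 for other RXR partners and related receptors and -0.65 for genes that supply hormone, beside 0.35 over all genes. Of 11 chaperones, 2 rose in AAV-Ctrl: Hsp90aa1, the inducible form of the chaperone that holds steroid receptors and AHR, rose 2.80-fold (146 and 119 to 321 and 418 FPKM, adjusted p 0.0151), and its co-chaperone Stip1 rose 1.72-fold, not called with median centring (adjusted p 0.254). In AAV-shPhpt1 Hsp90aa1 rose 2.03-fold against normal (adjusted p 0.0459), not called with median centring (0.162). Of 13 coactivators and corepressors only the corepressor Nrip1 passed in AAV-Ctrl, at 2.36-fold, and not with median centring (adjusted p 0.0834). The list of other RXR partners and related receptors also holds factors that are neither, among them the clock factor Arntl. Of its 18 tested genes, Ppard (3.31-fold) and Arntl (10.2-fold) rose in AAV-Ctrl, the latter not with quantile normalization (adjusted p 0.0509). The mean of Arntl reached the filter of 1 FPKM in the CCl4 groups only. The genes that supply hormone rose in 2 and fell in 4 of 16 in AAV-Ctrl. Serpina7, thyroxine-binding globulin, rose 8.44-fold, from 12.3 and 14.3 to 95.1 and 129 FPKM (adjusted p 0.0173), and Srd5a1, a steroid reductase, fell 3.60-fold, from 79.9 and 105.5 to 27.0 and 24.6 FPKM (adjusted p 0.0156). Hsd17b13, a lipid droplet enzyme, rose 1.66-fold, not called with median centring (adjusted p 0.337). In AAV-shPhpt1 against normal 2 of this list rose and 3 fell, where 3.26% of all genes rose and 1.07% fell. Serpina7 rose 7.65-fold and Hsd17b13 2.40-fold, both not called with median centring (adjusted p 0.0648 and 0.0567). Among those that fell were Dio1 and Srd5a1 (3.24-fold). In AAV-shPhpt1 against AAV-Ctrl 0 genes of these 9 lists passed, as did 0% of all genes. The 26 list genes called in AAV-Ctrl against normal include 0 still called when either normal library was left out, and 2 or 1 when an AAV-Ctrl library was, and the 13 called in AAV-shPhpt1 against normal likewise include 0 without either normal library. Without the filter on low values 24 of the 26 calls and 13 of the 13 were lost, the exceptions being Pck1 and Mt1 in AAV-Ctrl, and with only the 2 groups compared 7 of the 13 were.

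**Figure D4:**
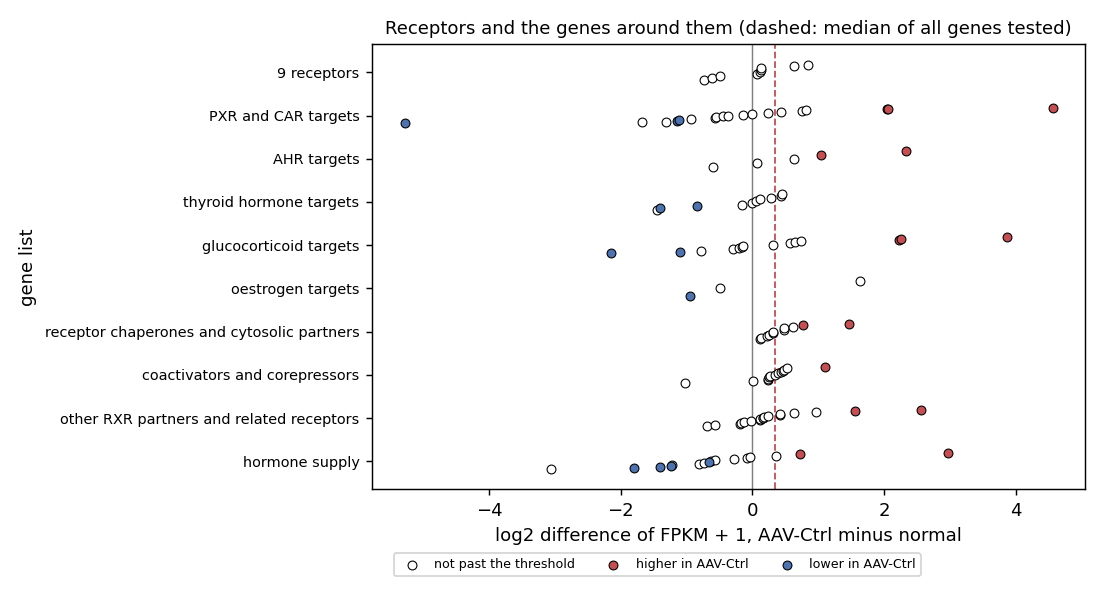
Log2 difference of FPKM + 1 in AAV-Ctrl against normal for the 9 receptors and for the tested genes of 9 lists, each point a gene, filled red where it rose and blue where it fell at an adjusted p under 0.05; the dashed line is the median of all genes tested (0.35). The 9 receptors are unfilled and lie between -0.73 and 0.84, and Arnt, Rxrb, Thrb and Nr3c1 among them change sign with median centring.

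Beside each member with a range of at least 1 on the log2 scale, the 5221 genes with as wide a range were ranked by Pearson r over the 6 libraries, as a description. Closest to Nr1i2 were Glt1d1 (r = 0.9859) and Etnppl (0.9788), and Etnppl was at 39.7 and 59.7, 36.9 and 24.9, and 52.2 and 35.3 FPKM in normal, AAV-Ctrl and AAV-shPhpt1. Closest to Nr1i3 were the thyroid hormone target Thrsp (0.9827) and Cyp2d38-ps (0.9727), both highest in normal replicate 2 as was Nr1i3. Ahr was nearest to Itga8 (0.9895), an integrin of stellate cells at 0.946 and 1.22, 7.11 and 2.81, and 2.76 and 0.782 FPKM, and to P3h2 (0.9883). Rxra was nearest to Mbl1 (0.9974), the mannose-binding lectin of hepatocytes at 197 and 147, 125 and 111, and 85.4 and 126 FPKM, and to 4930480G23Rik (0.9731). Esr1 was nearest to Fcer2a (0.9988) and Tbc1d10c (0.9943), each under 3 FPKM in all libraries and highest in AAV-shPhpt1 replicate 1. Each of these was picked as the highest of 5221 values over only 6 libraries.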

How the data were processed

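The authors deposited 1 table of FPKM values for the 6 libraries. The header names no unit; the unit was read from the values, since FPKM times mean transcript length (GENCODE M21, matched for 54495 of 55222 IDs) gave whole reads within 0.05 for 96.3% to 96.6% of values. The submitters' processing notes list Bowtie 0.12.2, mm8 and mm9 with no role. The counter, its annotation and its use of strand are not stated in the labels. A TruSeq kit was used on total RNA, per the labels. Groups and replicate numbers were taken from the sample titles.

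The 13517 genes whose mean reached 1 FPKM in some group were fitted as log2(FPKM + 1) with limma 3.58.1 (limma-trend, R 4.3.3), all 6 libraries in 1 fit with 3 comparisons, 3 residual and 3.21 prior degrees of freedom. Tests were two-sided, with Benjamini-Hochberg adjustment over all genes tested, and genes passed at an adjusted p under 0.05. Log2 differences are on the log2(FPKM + 1) scale, which understates the change of low genes; folds are ratios of group means of FPKM. The fit was run on simulated counts with the same spread for every gene. Such counts do not show how calls behave with the spread between these libraries. Each member stands in its own row, and p-values are adjusted over all genes, never over the members.

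The members and gene lists were chosen with earlier results of these data known. Named are all 9 members, 8 canonical targets, up to 2 called genes per list, comparison and direction with the largest log2 difference, and for members with a range of at least 1 the 2 genes with the highest r. Cell type marker lists were described by their counts and summed FPKM only. The alternatives were a pseudocount of 0.1, no filter, median centring, quantile normalization, a replicate block, limma-voom on recovered reads, only the groups compared, and leaving out each library. Same-numbered libraries deviated from their group means with r of 0.073, 0.041 and 0.153, so the numbers were not taken as pairs. No library was left out of the main results. Promoter windows are from RefSeq, GRCm38.p6, and gene coordinates and overlaps from GENCODE M21.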

Additional observations from a re-analysis of the deposited data

How the results depend on the processing

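Of 351 alternative values for single members (27 comparisons under 13 settings), 317 kept direction and side of the threshold, 30 changed sign, 4 passed where the reported value did not, and 0 lost a call, since 0 members were called. The number of members called was 0 in AAV-Ctrl against normal and became 1 with median centring (Nr1i2) and 1 with only the 2 groups compared (Esr1); it was 0 in AAV-shPhpt1 against AAV-Ctrl under all 13 settings; in AAV-shPhpt1 against normal it ranged from 0 to 2 when 1 library was left out, with Rxra and Esr1 called without AAV-shPhpt1 replicate 2. In AAV-Ctrl against normal, median centring and quantile normalization turned Arnt to -0.38 and -0.25, Rxrb to -0.32 and -0.16, Thrb to -0.33 and -0.21, and Nr3c1 to -0.31 and -0.14. In AAV-shPhpt1 against normal they turned Ahr to -0.14 and -0.08, Arnt to -0.28 and -0.16, and Nr3c1 to -0.19 and -0.04, and median centring turned Rxrb to -0.11. With median centring, the median log2 difference over all genes went from 0.35 to -0.099 and from 0.30 to -0.047 in these comparisons, a change of sign. With quantile normalization it was -0.045 and 0.001. Leaving out each library in turn moved Arnt in AAV-Ctrl against normal between -0.22 and 0.36 (-0.05 without AAV-Ctrl replicate 2). In AAV-shPhpt1 against AAV-Ctrl it moved Nr1i3 between -0.89 and 0.14, Arnt between -0.11 and 0.12 (-0.08 without AAV-shPhpt1 replicate 2), Rxra between -0.44 and 0.12, Nr3c1 between -0.01 and 0.04 and Esr1 between -0.40 and 0.59. In AAV-shPhpt1 against normal it moved Nr1i2 between -0.43 and 0.23, Ahr between -0.07 and 0.50, Arnt between -0.22 and 0.36, and Thrb between -0.18 and 0.06. Nr1i2 and Ahr in AAV-shPhpt1 against AAV-Ctrl kept their sign and ranged from 0.30 to 0.96 and from -1.06 to -0.20. The cause was not tested.

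The replicate block left 0 members called in each comparison and gave 2162, 0 and 384 called genes in place of 2772, 0 and 586; it ended the call of 3 of 26 list genes in AAV-Ctrl against normal, Cyp1a1 (adjusted p 0.0638), Slc10a1 (0.0646) and Hsd17b13 (0.0535), and of 2 of 13 in AAV-shPhpt1 against normal, Igfbp4 (0.079) and Hsp90aa1 (0.0641), with their log2 differences as reported. Of all genes, AAV-Ctrl against normal called 2464 higher and 308 lower, beside 566 and 729 with median centring, 632 and 460 with quantile normalization and 96 in all without the filter. AAV-shPhpt1 against normal called 441 higher and 145 lower, beside 128 and 185, 114 and 122, and 4 in all, with 186 by limma-voom and 202 with only the groups compared. Groups of 2 libraries, with 190 to 11503 reads per member value, limit precision through the spread between libraries, up to 1.15 on the log2 scale to either side.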

Other observations

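Some values within each library were set beside each other after the members' values had been seen, and they carry no test. Rxra stood at 9.16 and 8.32 times the level of Rxrb in normal livers, 6.22 and 5.19 times for AAV-Ctrl, and 3.90 and 5.62 times in AAV-shPhpt1, so the ratio in both normal libraries was above that in the 4 CCl4 libraries. A ratio within a library does not move with its scaling. Its size depends on the transcript lengths used, and it does not show which of the receptors moved. The Ahr level was 0.641 and 0.491 times that of Arnt in normal, 1.47 and 0.667 times in AAV-Ctrl, and 0.814 and 0.476 times in AAV-shPhpt1 livers, with AAV-Ctrl replicate 1 alone above 1. Nr1i3 stood at 2.23 and 3.29 times its antisense neighbour Tomm40l in normal, 2.50 and 1.03 times for AAV-Ctrl, and 1.59 and 1.00 times in AAV-shPhpt1 livers. Nr1i3 stood at 0.284 and 0.480 times Nr1i2 in normal, 0.515 and 0.295 times for AAV-Ctrl, and 0.147 and 0.231 times in AAV-shPhpt1 livers, where both ratios were below those of the other 4 libraries.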
